A study of Mus musculus with 6 samples.

Results

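The MYC and MAX network was followed as 10 genes, *Myc*, *Mycn*, *Max*, *Mxd1*, *Mxd3*, *Mxd4*, *Mxi1*, *Mnt*, *Mlx* and *Mga*, which were taken by symbol from the 24499 genes of the count table. All 10 passed the filter on low counts, as did 13296 genes in all. RNA-seq of polyA RNA covered 3 cKO and 3 control libraries of in vitro germinal center B cells (iGCBs), each from the spleen of a separate mouse. Naïve B cells were grown for 3 days on 40LB cells, a BALB/c 3T3 fibroblast line expressing CD40L and BAFF that had been irradiated with 120 Gy, with IL-4 at 1 ng/ml, and YFP+ cells were then sorted. Mice were on the C57BL/6J background, and cKO mice carried *Cγ1*Cre, the *Rosa26-YFP*LSL reporter and *Eif3e* fl/fl, so that *Eif3e*, which encodes part of a translation initiation factor, is lost once Cre is made. Control mice are called control in the titles and cgWT in the library names, without a full genotype. Reporter controls elsewhere in the study were *Cγ1*Cre and *Rosa26-YFP*LSL alone. Since the control cells were sorted for YFP as well, Cre and the reporter were shared by both groups. Cre from *Cγ1*Cre follows transcription of the Ig γ1 constant region, so deletion starts only after activation and YFP marks cells in which Cre has acted. Ages of the mice and further alleles of the controls were not given in the sources used here, and the general culture protocol gives 4 days where the titles give 3.

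MYC and its relative MYCN are transcription factors that bind DNA only as a pair with MAX, at E-box sequences, and drive genes for ribosome assembly, nucleotide synthesis and cell division. MXD1, MXD3, MXD4, MXI1 and MNT compete for MAX, occupy the same sites and recruit the SIN3 and histone deacetylase corepressors, while MLX links the network to the nutrient sensor MondoA and MGA brings MAX into a Polycomb complex. In germinal centers, *Myc* is switched on for a short time in B cells that receive T cell help through CD40, the signal that 40LB cells supply in culture.

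*Myc* itself was about level between cKO and control iGCBs, while its obligate partner *Max* was 1.55-fold higher and the antagonists *Mnt*, *Mxd4* and *Mxd3* were at 52.8%, 60.5% and 63.2% of control. *Mlx* was lower as well, at 77.9% of control. Of the 10 genes, 1 was higher (*Max*) and 4 were lower (*Mnt*, *Mxd4*, *Mxd3* and *Mlx*) at an adjusted p under 0.05 in edgeR's quasi-likelihood test, against 24.1% and 24.5% of all tested genes. With a fold change over 1.5 added, 1 gene was higher (*Max*) and 3 were lower (*Mnt*, *Mxd4* and *Mxd3*), against 10.4% and 10.6% of all tested genes. The median log2 fold change, cKO over control, was −0.115 over the 10 genes and −0.00402 over all tested genes. In 6 of the 10 genes the cKO libraries did not overlap the control libraries, which was true of 58.7% of all tested genes, so the share by this measure was close to the background. In such bulk samples, fewer cells of a kind that expresses a gene and less RNA of that gene per cell cannot be told apart.

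The libraries held 39079582 to 45504570 counts each, and 3 counts, the upper limit that a count of 0 allows, corresponded to 0.0661 to 0.0763 CPM, for counting error only. Levels are counts per 1000000 (CPM) scaled by TMM. *Eif3e* was at 173, 150 and 152 CPM in cKO and at 424, 401 and 392 CPM in control, a log2 fold change of −1.36 (SE 0.0657, adjusted p = 6.71e-07, edgeR), in the direction of the labels. All 6 B cell markers were present, with sums of 4460 to 4620 CPM in cKO and 4330 to 4690 CPM in control, and T cell markers summed to at most 0.355 CPM with *Cd3e* at 0. Of 12 fibroblast markers, *Lum* and *Postn* were at 0 in every library, and the sum was 97.5 to 111 CPM in cKO, 113 and 108 CPM in control 1 and 2, and 56.0 CPM in control 3. Of the 9 fibroblast markers tested, 3 were higher in cKO (33.3%) and none lower, against 24.1% and 24.5% of all tested genes. The median log2 fold change of the 9 was −0.22. The higher ones were *Col5a1* (3.05-fold), *Fn1* (2.1-fold) and *Fbn1*, which was at 4.56, 3.09 and 4.05 CPM in cKO and at 0 in all controls. The 5 myeloid markers summed to 4.08 to 6.22 CPM in cKO and 1.22 to 2.45 CPM in control, with *Adgre1* the largest part (3.64 to 5.54 against 0.62 to 2.02 CPM), while *Itgam* was at 0.18 against 0.385 CPM. The 5 plasma cell markers summed to 646 to 788 CPM in cKO and 831 to 852 CPM in control, a sum that hides changes in both directions. *Jchain*, *Prdm1* and *Xbp1* were at 6.24%, 45.6% and 46.7% of control, while *Sdc1* and *Irf4* were 3.02-fold and 1.34-fold higher (adjusted p from 1.58e-06 to 0.00282, edgeR). *Xist*, which is expressed from the inactive X chromosome of females, had at least 53272 counts in cKO 2, control 1 and control 2 and at most 16 in the others, so both groups mix the sexes. The part of these differences in the results was not tested, other than by the values given beside them.

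Since the network's factors meet at the E-box, the promoters of its own genes were searched for the letters CACGTG, the canonical E-box, which reads the same on both strands, from 250 bases before to 50 bases after each transcript start. Promoters from RefSeq on GRCm38.p6 were at hand for 9 of the 10 genes, all but *Myc*. CACGTG was found in 4 of the 9 (44.4%), in *Max*, *Mlx*, *Mnt* and *Mxd4*, compared with 8.09% of the 27025 genes with a promoter and 11.7% of the tested genes. These 4 are 4 of the 5 genes that passed the test, the remaining one being *Mxd3*. Over all tested genes with a promoter, 55.2% of the 1179 with CACGTG and 49.1% of the 8921 without it passed the test in either direction. The related letters CACGCG, read on both strands, were found in *Mga* alone (1 of 9, 11.1%), compared with 10.5% of all genes with a promoter and 20% of the tested genes. Counted from the transcript start, the first base of the E-box lay at −3 in *Max*, −40 in *Mlx*, −123 in *Mnt* and −219 in *Mxd4*. The 4 promoters are shown because they carry the motif and belong to genes that differed between cKO and control. Each is written 5′ to 3′ in the direction of the gene, from 250 bases before to 20 bases after the start, with the E-box in capitals. *Max* is at chr12:76962229-76962498 on the minus strand, *Mlx* at chr11:101087040-101087309 on the plus strand, *Mnt* at chr11:74830674-74830943 on the plus strand and *Mxd4* at chr5:34187691-34187960 on the minus strand. A match is a run of letters, and binding was not measured.
Max: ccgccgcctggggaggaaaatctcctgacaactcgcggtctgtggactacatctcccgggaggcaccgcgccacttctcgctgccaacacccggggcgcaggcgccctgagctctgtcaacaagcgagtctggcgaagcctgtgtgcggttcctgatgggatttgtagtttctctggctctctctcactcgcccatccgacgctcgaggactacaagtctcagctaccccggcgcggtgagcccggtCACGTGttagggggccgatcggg
Mlx: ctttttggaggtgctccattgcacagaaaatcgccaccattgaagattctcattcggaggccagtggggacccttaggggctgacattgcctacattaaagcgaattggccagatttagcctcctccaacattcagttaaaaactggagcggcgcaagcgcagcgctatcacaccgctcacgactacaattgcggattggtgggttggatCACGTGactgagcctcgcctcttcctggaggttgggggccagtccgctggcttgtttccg
Mnt: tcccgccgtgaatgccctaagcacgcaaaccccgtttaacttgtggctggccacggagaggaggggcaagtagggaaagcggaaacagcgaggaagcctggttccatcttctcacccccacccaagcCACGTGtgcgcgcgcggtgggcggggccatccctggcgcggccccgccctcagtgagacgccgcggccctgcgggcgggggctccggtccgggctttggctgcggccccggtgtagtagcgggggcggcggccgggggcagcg
Mxd4: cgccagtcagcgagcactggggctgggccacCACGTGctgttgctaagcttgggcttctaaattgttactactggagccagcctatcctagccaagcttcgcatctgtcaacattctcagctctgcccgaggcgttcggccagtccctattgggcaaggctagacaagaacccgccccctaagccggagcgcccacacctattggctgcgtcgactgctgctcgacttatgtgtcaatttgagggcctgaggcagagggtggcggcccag

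*Myc* lies at chr15:61985391-61990374 on the plus strand in GENCODE M21 on GRCm38, the build of all gene positions given here. *Myc* was at 250, 271 and 257 CPM in cKO 1, 2 and 3, and at 225, 224 and 314 CPM in control 1, 2 and 3. The cKO values lay between those of the controls, of which control 3 was the highest of all 6 libraries. The means were 259 ± 10.8 and 254 ± 51.5 CPM (SD, n = 3 each), and the log2 fold change was 0.03 (SE 0.114, adjusted p = 0.87, edgeR), with a 95% interval from −0.23 to 0.28. The interval leaves out a change of 1.5-fold either way, but not smaller ones. Control 3 decided this result, since without it the log2 fold change was 0.21 (SE 0.0582, adjusted p = 0.0158, edgeR). Control 3 was also the library with the lowest sum of fibroblast markers and the only control without *Xist*, and the part of either in the *Myc* level was not tested. With *Xist* as a covariate, the log2 fold change of *Myc* was −0.02 (adjusted p = 0.894, edgeR).

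**Figure D1:**
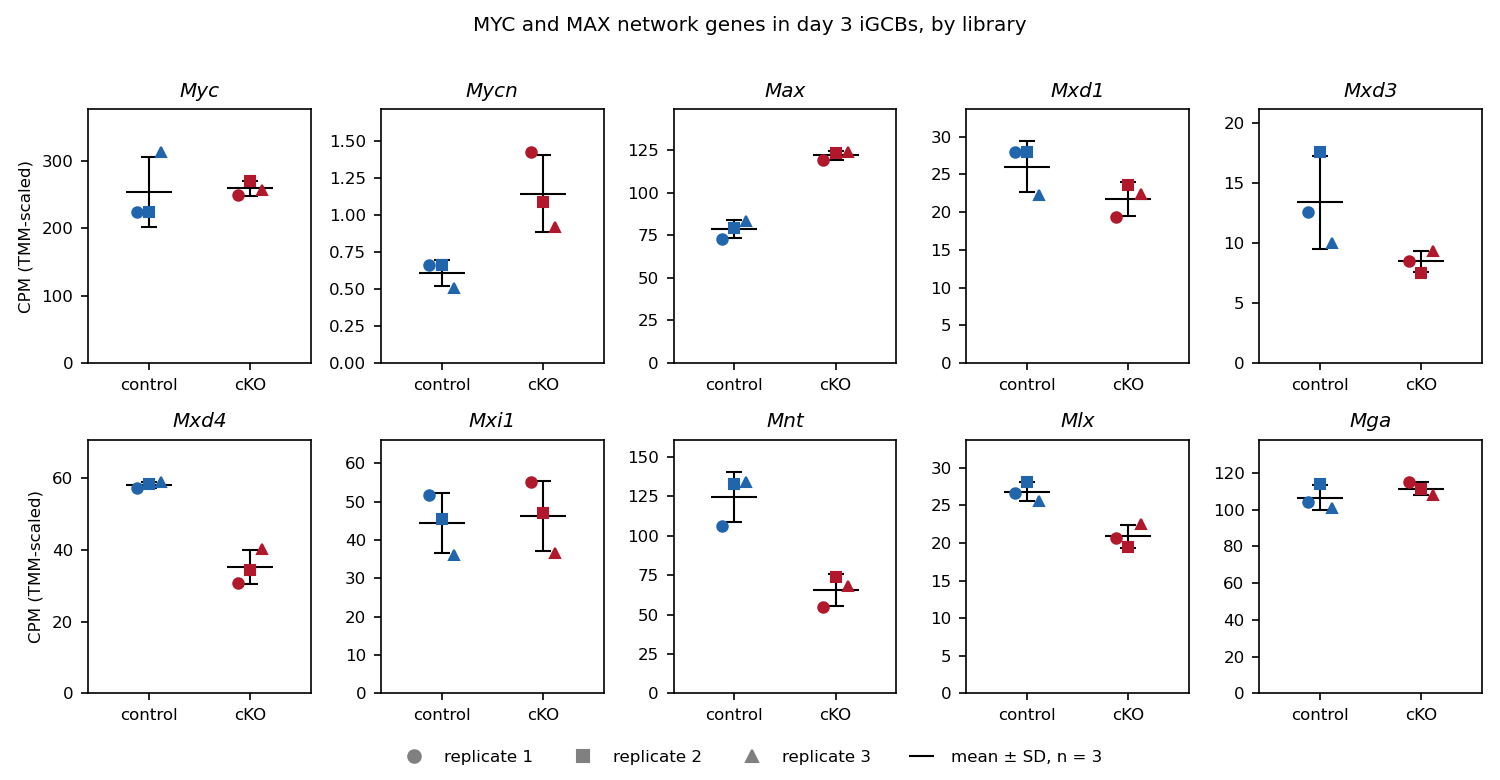
Level of each of the 10 network genes in CPM (y axis, from 0, a scale of its own in each panel) in the 3 control and 3 cKO libraries of day 3 iGCBs, with the mean and SD as black lines. *Max* is higher in all 3 cKO libraries, *Mnt*, *Mxd4*, *Mxd3* and *Mlx* are lower in all 3, and *Myc* is highest in control 3 at 314 CPM.

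*Mycn*, a paralog of *Myc* best known from embryonic and neural tissue, was close to silent. It was at 1.43, 1.09 and 0.919 CPM in cKO and at 0.665, 0.661 and 0.51 CPM in control, from 65, 49 and 39 and from 30, 26 and 21 counts. The groups did not overlap, but the log2 fold change of 0.90 (SE 0.404) had an adjusted p of 0.0899 in edgeR. Its call depended on the filter, since keeping only genes with at least 10 counts in every library gave 0.91 with an adjusted p of 0.0378.

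*Max*, which encodes the partner shared by MYC and the antagonists, lies at chr12:76937269-76962201 on the minus strand. *Max* was at 119, 123 and 124 CPM in cKO and at 72.9, 79.3 and 83.5 CPM in control. The lowest cKO library stood well above the highest control, and the spread within each group was small. The means were 122 ± 2.89 and 78.6 ± 5.33 CPM (SD, n = 3 each), with a log2 fold change of 0.63 (SE 0.0613, adjusted p = 2.17e-05, edgeR). *Max* passed the test under all 16 alternatives and with each library left out (0.58 to 0.68), and fell just under 1.5-fold without control 1. A test that the change exceeds 1.5-fold gave an adjusted p of 0.47 for *Max*.

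Of the antagonists, *Mnt* differed most. MNT is the broadly expressed member of this group, and its gene lies at chr11:74830920-74845725 on the plus strand. *Mnt* was at 54.6, 74.0 and 68.1 CPM in cKO and at 106, 133 and 134 CPM in control. All cKO libraries were below all controls, with cKO 1 and control 1 the lowest of their groups. The means were 65.6 ± 9.96 and 124 ± 15.8 CPM (SD, n = 3 each), with a log2 fold change of −0.92 (SE 0.118, adjusted p = 0.000129, edgeR). *Mnt* was the only one of the 10 genes to pass the test that the change exceeds 1.5-fold (adjusted p = 0.0264, edgeR).

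*Mxd4*, a MAD family member linked to cell cycle exit and differentiation, lies at chr5:34173883-34187720 on the minus strand. *Mxd4* was at 30.8, 34.5 and 40.3 CPM in cKO and at 57.2, 58.3 and 59.0 CPM in control. The controls lay within 2 CPM of each other, and the highest cKO library was far below them. The means were 35.2 ± 4.8 and 58.2 ± 0.921 CPM (SD, n = 3 each), with a log2 fold change of −0.73 (SE 0.0963, adjusted p = 0.00016, edgeR). The changes of *Mnt* and *Mxd4* passed under all 16 alternatives each, and with each library left out they ranged from −1.02 to −0.80 and from −0.83 to −0.64.

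*Mxd3*, the MAD family member that is expressed in dividing cells, was less even. *Mxd3* was at 8.51, 7.53 and 9.34 CPM in cKO and at 12.6, 17.6 and 9.96 CPM in control. The highest cKO and the lowest control library almost met. Its log2 fold change was −0.66 (SE 0.194, adjusted p = 0.0169, edgeR), and it was −0.42 (adjusted p = 0.0674) without control 2, −0.58 (adjusted p = 0.0696) without cKO 2 and −0.58 (adjusted p = 0.0548) with *Xist* as a covariate. *Mxd3* (chr13:55325168-55329823, minus strand) shares 105 of its 2369 exonic bases with *Prelid1* on the opposite strand, a gene at 527 CPM in control that was at 48.2% of control in cKO. The strand setting of the counting was not given in the sources used here, and the part of *Prelid1* in the *Mxd3* counts was not tested.

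*Mxd1*, which rises as many blood cells mature, was at 19.3, 23.6 and 22.4 CPM in cKO and at 27.9, 28.0 and 22.2 CPM in control. The groups overlapped through control 3, and the log2 fold change of −0.26 (SE 0.119) had an adjusted p of 0.102 in edgeR, or of 0.029 without control 3. *Mxi1*, the remaining MAD family member, was at 55.1, 46.9 and 36.7 CPM in cKO and at 51.6, 45.4 and 36.0 CPM in control. Its libraries were spread alike in both groups, and its log2 fold change was 0.06 (SE 0.157, adjusted p = 0.783, edgeR), with a 95% interval from −0.29 to 0.41.

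*Mlx*, the MAX-like factor that pairs with MondoA as well as with MNT and some MAD proteins, was at 20.6, 19.5 and 22.5 CPM in cKO and at 26.7, 28.1 and 25.6 CPM in control. The groups did not overlap, and the log2 fold change was −0.36 (SE 0.0925, adjusted p = 0.00856, edgeR), under the 1.5-fold cutoff. *Mlx* (chr11:101087277-101092207, plus strand) shares 385 of its 1999 exonic bases with *Psmc3ip* on the opposite strand, which was higher in cKO (17.1 against 12.7 CPM). *Mga*, the large protein with both a MAX-binding and a T-box domain, was at 115, 111 and 108 CPM in cKO and at 104, 114 and 101 CPM in control. The groups overlapped, and the log2 fold change of 0.07 (SE 0.0596, adjusted p = 0.376, edgeR) had a 95% interval from −0.06 to 0.20, the narrowest interval of the 10 genes.

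**Figure D2:**
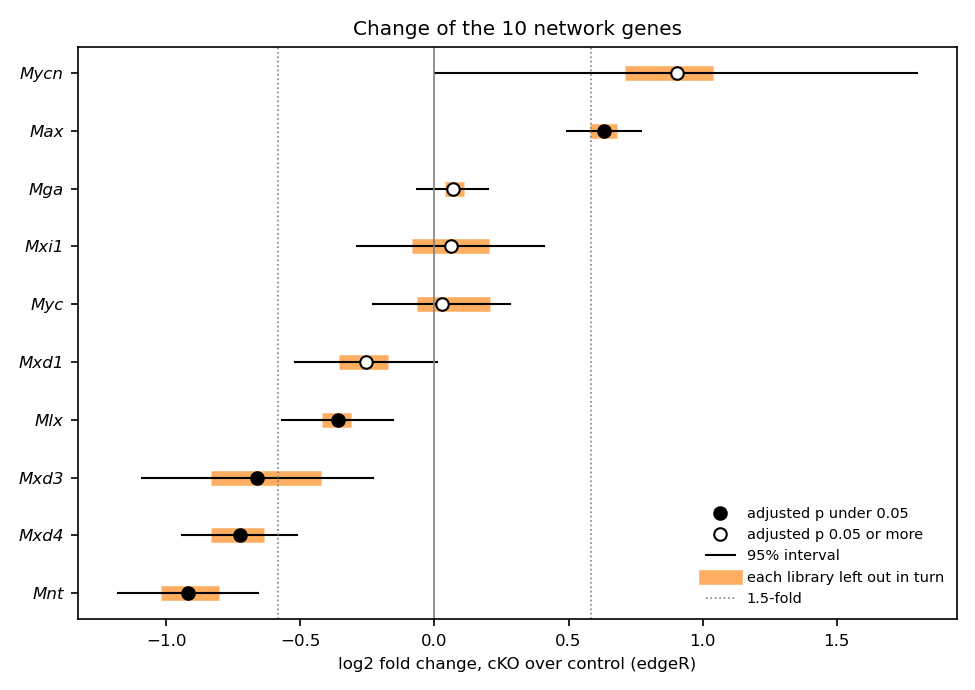
Log2 fold change of the 10 genes, cKO over control, from edgeR (points), with 95% intervals (black lines) and the range over fits that leave out 1 library at a time (orange bars). The intervals of *Mnt*, *Mxd4*, *Mxd3*, *Mlx*, *Max* and *Mycn* lie on one side of 0 (from 0.00308 for *Mycn*, whose adjusted p was 0.0899), and that of *Myc* is centred near 0.

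With 3 libraries against 3, a two-sided exact permutation test of 1 gene cannot give a p under 0.1, and that smallest p was reached by the 6 genes without overlap, *Mycn* included.

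To compare levels between genes, CPM were divided by transcript length in kilobases, with the estimated counts of each transcript and GENCODE lengths. In control, the order of mean levels per kilobase was *Myc* (113 CPM per kb), *Max* (40.7), *Mnt* (27.0), *Mxi1* (17.1), *Mxd4* (15), *Mlx* (14.3), *Mxd3* (10.1), *Mga* (7.63), *Mxd1* (5.57) and *Mycn* (0.229). In cKO, the order by the same measure was *Myc* (115 CPM per kb), *Max* (63.1), *Mxi1* (17.9), *Mnt* (14.3), *Mlx* (11.1), *Mxd4* (9.09), *Mga* (8.01), *Mxd3* (6.37), *Mxd1* (4.67) and *Mycn* (0.429). *Myc* and *Max* led and *Mxd1* and *Mycn* came last in both groups, whereas *Mnt* stood apart from both neighbours in control and overlapped *Mxi1* and *Mlx* in cKO. Neighbours whose libraries overlapped were *Mxi1* and *Mxd4*, *Mxd4* and *Mlx*, and *Mxd3* and *Mga* in control, and *Mxi1* and *Mnt*, *Mnt* and *Mlx*, and *Mxd4* and *Mga* in cKO.

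Summed by role, the RNA of the 5 antagonists that compete with MYC for MAX was at 51.6, 54.0 and 51.3 CPM per kb in cKO and at 73.1, 81.0 and 70.5 CPM per kb in control. *Mnt* and *Mxd4* made up most of the gap. The ratio of *Myc* plus *Mycn* to these 5 genes was 2.14, 2.24 and 2.21 in cKO and 1.35, 1.25 and 1.99 in control. The ratio was higher in every cKO library, but control 3, with its high *Myc*, came close to them. *Max* over the sum of its listed partners (*Myc*, *Mycn*, the 5 antagonists and *Mga*) was 0.36, 0.349 and 0.371 in cKO and 0.211, 0.216 and 0.199 in control, with no overlap and little spread. Log2 ratios of CPM within a library showed which antagonists differed relative to *Myc*. *Myc* over *Mnt* was 2.19, 1.87 and 1.92 in cKO and 1.09, 0.75 and 1.23 in control, and *Myc* over *Mxd4* was likewise without overlap (means of 2.89 and 2.11). *Myc* over *Mxd1* and over *Mxd3* overlapped between the groups (means of 3.57 and 3.28, and of 4.93 and 4.26), and *Myc* over *Mxi1* was level (2.51 and 2.52). *Myc* over *Max* went the other way, from 1.63, 1.5 and 1.91 in control to 1.07, 1.14 and 1.05 in cKO. These ratios describe RNA, not protein, and as scores over chosen genes they were not tested.

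**Figure D3:**
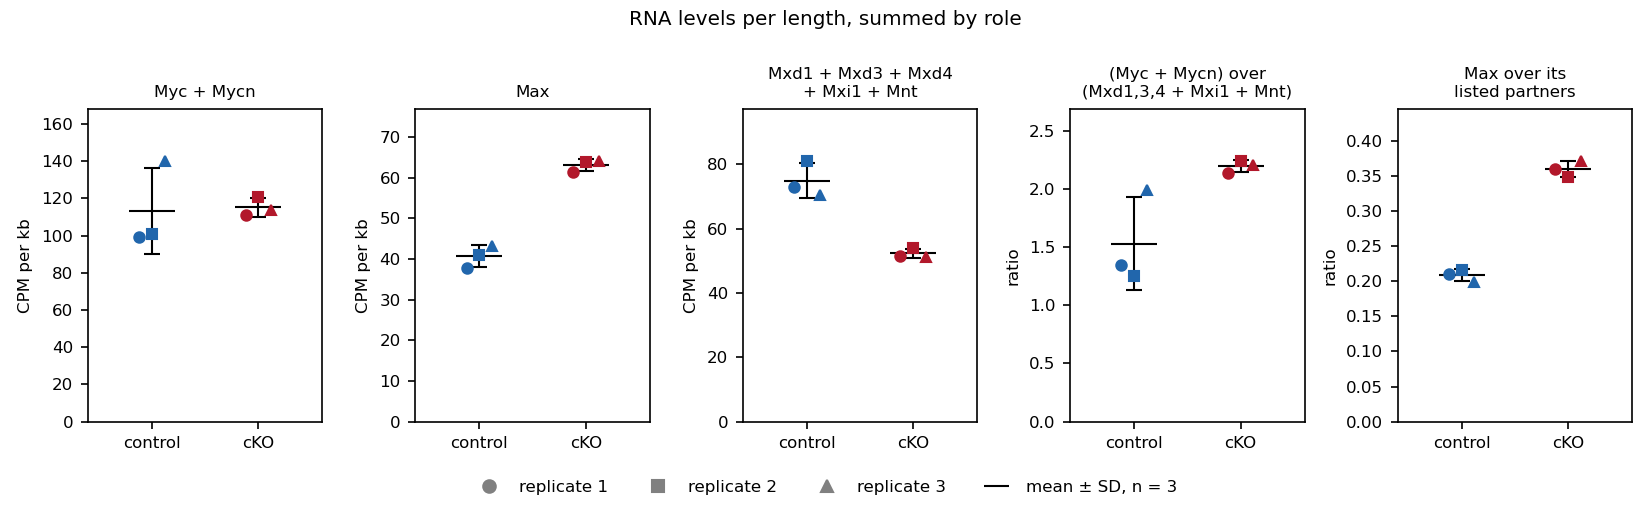
RNA levels per kilobase of transcript summed by role (first 3 panels, CPM per kb) and 2 ratios of these sums, in each control and cKO library, with the mean and SD as black lines and every axis from 0. Antagonists sum to 51.3 to 54.0 CPM per kb in cKO and to 70.5 to 81.0 in control, and *Max* over its listed partners is 0.349 to 0.371 against 0.199 to 0.216.

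Transcript use, the share of a gene's counts given to each of its transcripts, was compared for the 5 genes with at least 2 transcripts. None of *Myc*, *Max*, *Mxi1*, *Mlx* and *Mga* passed edgeR's diffSpliceDGE test (adjusted p from 0.723 to 0.927, smallest unadjusted p = 0.346), against 3.28% of 2990 genes. *Max* is made as a shorter form of 151 residues and a longer form of 160, and the shorter took 82.7%, 78.0% and 72.9% of *Max* counts in cKO and 81.0%, 82.1% and 74.4% in control. The shares overlapped between the groups, and the levels of each form were not tested on their own. *Mxi1* counts went mostly to the form of 295 residues (82.9% ± 3.86 in cKO and 86.3% ± 7.76 in control, SD, n = 3 each), and the form of 192 residues was at 0 in every library. *Mlx* was split mainly between forms of 244 and 298 residues, with shares of the 244-residue form from 33.4% to 62.7% in cKO and from 47.9% to 55.1% in control. *Myc* had 4 transcripts, 3 of which match a single GENCODE transcript, so that the division of counts among them is uncertain.

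The other genes of the pathway were read from lists by role. In the MondoA arm, *Mlxip*, which encodes MondoA, was lower in cKO at 99.9 against 131 CPM (log2 fold change −0.39, adjusted p = 0.000783, edgeR). Its usual targets did not pass edgeR's test without a block, with *Txnip* at 245, 295 and 354 CPM in cKO and 283, 399 and 432 CPM in control (adjusted p = 0.124) and *Arrdc4* at 1.08 against 0.393 CPM (adjusted p = 0.19). Together with *Mycl*, 4 genes of this list were tested, of which 0 were higher and 1 (25%) was lower in edgeR, the lower share being that of all tested genes (24.5%). At an unadjusted p under 0.05, 1 was higher, and DESeq2 gave 0 higher genes. These calls moved with the tool, with a block on the replicate number and with single libraries. With that block, *Txnip* was lower (log2 fold change −0.31, adjusted p = 0.00369, edgeR) and *Mycl* higher (0.78, adjusted p = 0.0275). *Arrdc4* passed in limma-voom (log2 fold change 2.73, adjusted p = 0.0483). *Txnip* was lower without cKO 3 (log2 fold change −0.46, adjusted p = 0.0435, edgeR) or without control 1 (−0.48, adjusted p = 0.0167). *Mycl* and *Arrdc4* were higher without control 3 (0.94 and 2.54, adjusted p = 0.0465 and 0.0479).

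MYC cofactors, the acetyltransferase and chromatin proteins that MYC recruits, gave 7 higher and 3 lower of 12 genes (58.3% and 25%), against 24.1% and 24.5% of all tested genes, so the lower share was at the background. Only *Wdr5*, a chromatin anchor for MYC, also passed 1.5-fold, at 101, 115 and 105 CPM in cKO and 61.8, 66.8 and 63.8 CPM in control (log2 fold change 0.74, SE 0.0634, adjusted p = 1.08e-05, edgeR). The 3 lower genes, named after their values were seen, were *Kat5*, *Bptf* and *Zbtb17*, the last of which encodes MIZ1, through which MYC represses genes.

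Corepressors that serve the antagonists (SIN3, histone deacetylase and NCOR subunits) were higher in 8 and lower in 0 of 18 genes in edgeR, against 24.1% and 24.5% of all tested genes. At an unadjusted p under 0.05, 1 gene was lower, and DESeq2 gave 0 lower genes, while 1 was lower without cKO 3 or without control 3. *Sap30*, a SIN3 subunit, was at 69.4, 66.1 and 56.0 CPM in cKO and 34.5, 32.4 and 29.6 CPM in control (log2 fold change 0.99, adjusted p = 2.25e-05), and *Hdac2* at 123, 127 and 120 against 65.9, 66.7 and 68.2 CPM (0.88, adjusted p = 1.67e-06, edgeR). *Sin3a* itself was at 117 against 129 CPM (adjusted p = 0.12).  For the Polycomb partners of MGA, 4 genes were higher and 2 lower of 10 (40% and 20%, against 24.1% and 24.5% of all tested genes), and none of them passed 1.5-fold at an unadjusted p under 0.05 or at an adjusted one in edgeR. Without cKO 2 the counts were 2 higher and 1 lower, without cKO 1 or cKO 3 there was 1 lower gene, and without control 3 there were 0 lower genes in edgeR.

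Genes for the stability of the MYC protein were higher in 5 and lower in 4 of 16 genes (31.2% and 25%), and their median was 0.02 on the log2 scale. Over all tested genes 24.1% were higher and 24.5% lower, so as a group these genes stood near the background. Without cKO 2, 3 were higher. *Set*, an inhibitor of the phosphatase PP2A, rose from 445, 407 and 450 CPM in control to 814, 894 and 827 CPM in cKO (log2 fold change 0.96, SE 0.0567, adjusted p = 1.72e-06, edgeR). *Usp28*, a deubiquitinase that opposes the ubiquitin ligase FBXW7, fell from 58.0, 60.4 and 63.1 CPM to 34.8, 34.7 and 37.5 CPM (−0.76, adjusted p = 1.75e-05). *Fbxw7* was at 160 against 144 CPM (adjusted p = 0.156). MYC protein was not measured in these files.

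Of 30 commonly cited MYC-induced targets, 23 were higher and 4 were lower in cKO, against 24.1% and 24.5% of all tested genes. The median over these targets was 0.75 on the log2 scale, against −0.00402 over all genes. Past both cutoffs were 17 higher genes and 1 lower gene, against 10.4% and 10.6% of all tested genes. *Srm*, spermidine synthase, was at 174, 214 and 187 CPM in cKO and 48.2, 42.3 and 57.8 CPM in control, a log2 fold change of 1.95 (SE 0.113, adjusted p = 1.58e-06, edgeR). *Polr1b*, a subunit of RNA polymerase I, was at 70.9, 94.2 and 77.3 CPM in cKO and 27.3, 26.4 and 31.3 CPM in control (1.51, SE 0.111, adjusted p = 4.49e-06). The 10 nucleolar and ribosome assembly genes of the list were all higher, and the other 20 genes gave 13 higher and 4 lower, a split made after the values were seen. The 4 lower genes, named likewise, were *Ldha*, *Cdk4*, *Tfrc* and *Shmt2*, with *Shmt2*, the mitochondrial serine hydroxymethyltransferase, at 199, 233 and 196 CPM in cKO and 377, 372 and 414 CPM in control (−0.89, adjusted p = 9.17e-06). Lactate dehydrogenase (*Ldha*) serves glycolysis, the transferrin receptor (*Tfrc*) iron uptake and *Cdk4* entry into S phase.

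Of 10 MYC-repressed targets, 3 were higher and 5 were lower in cKO, and their median log2 fold change was −0.59. Over all tested genes, 24.1% were higher and 24.5% lower with a median of −0.00402, so the share of higher genes (30%) was near the background. *Ndrg1*, named for its repression by N-MYC, was at 41.9, 30.9 and 26.5 CPM in cKO and 82.2, 69.6 and 53.6 CPM in control (−1.05, SE 0.18, adjusted p = 0.000828, edgeR). *Thbs1*, the angiogenesis inhibitor thrombospondin, was at 4.74, 4.22 and 2.95 CPM in cKO and 6.29, 10.5 and 5.42 CPM in control (−0.90, adjusted p = 0.0185). The 3 higher genes, named after their values were seen, were *Cdkn1a*, *Cdkn2c* and *Gadd45g*, and *Cdkn1a*, the p21 cell cycle inhibitor, was at 37.1 against 25.7 CPM (0.53, adjusted p = 0.0154). Members of the same families were lower, with *Cdkn1b* at 67.2% of control (adjusted p = 0.000816, edgeR) and *Gadd45a* at 59.3% (adjusted p = 2.14e-05).

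**Figure D4:**
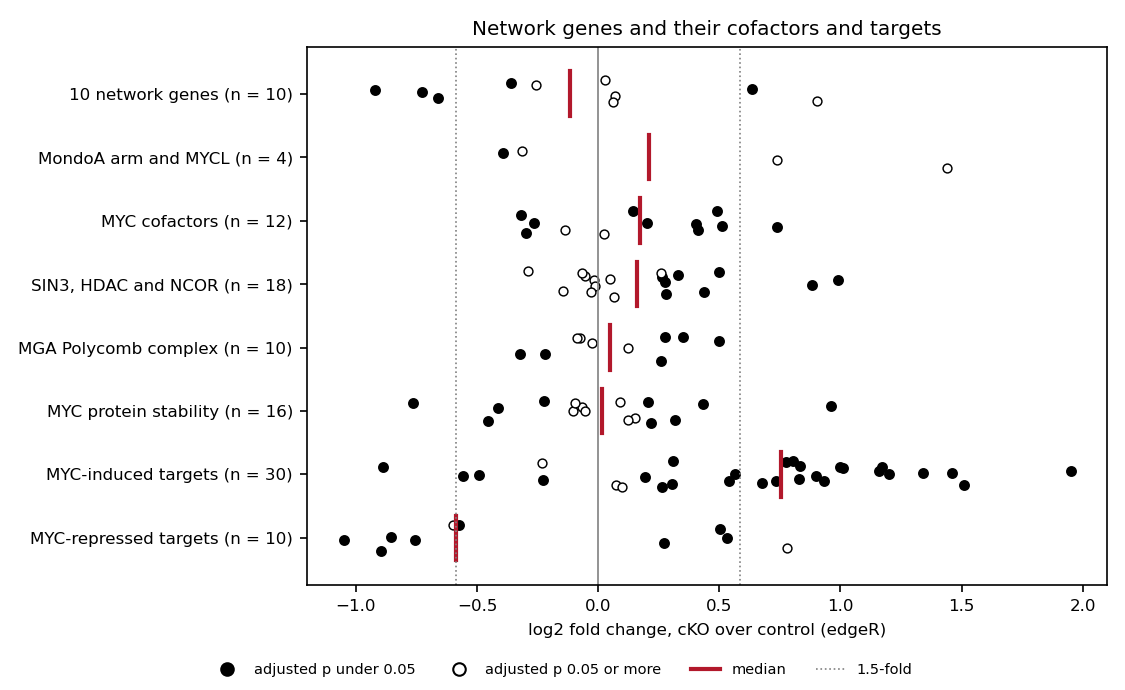
Log2 fold change, cKO over control, of each tested gene (points, filled where edgeR's adjusted p was under 0.05) in the 10 network genes and 7 lists of cofactors and targets, with the list median in red and vertical offsets only to separate points. MYC-induced targets have the highest median (0.75) and MYC-repressed targets the lowest (−0.59), while the 10 network genes spread to both sides.

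Profiles most like that of *Myc* were sought among the other 8513 genes with a mean of at least 10 CPM, by the root mean square difference of centred log2 CPM over the 6 libraries. The nearest were *Dhx32* (0.0466), *Aldh4a1* (0.0578), *Mrpl15* (0.0639), *Bhlhe40* (0.0654) and *Cnn3* (0.068), beside a spread of *Myc* about its own mean of 0.166. None of the other 9 network genes was among these 5. All 6 libraries enter this measure, so a level shared with control 3 weighs heavily in it.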

How the data were processed

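RNA-seq libraries of YFP+ day 3 iGCBs from 3 cKO and 3 control mice were grouped by their titles. After adapter and quality trimming, the authors ran HISAT2 and StringTie and deposited estimated counts for genes and for RefSeq transcripts, which are whole numbers without normalization. The submitters' processing notes name mm10, while tool versions, annotation, read length and strand setting were not given in the sources used here. Such estimates divide reads among overlapping transcripts.

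Counts were analyzed in R 4.3.3 with edgeR 4.0.16 (filterByExpr with a minimum count of 10, TMM, glmQLFit and glmQLFTest, cKO against control, no covariates) with Benjamini-Hochberg adjustment over 13296 genes. A gene passed when its adjusted p was under 0.05, and the second cutoff was a 1.5-fold change. Alternatives included DESeq2 1.42.0, which the authors used, and limma-voom (limma 3.58.1). Transcript use was tested with diffSpliceDGE after 34674 of 36026 transcripts were matched to genes by RefSeq accession. The fits were tested on simulated data. Named genes were all 10 network genes, *Eif3e*, up to 2 highest and 2 lowest genes past both cutoffs without overlap in each list, *Txnip*, *Arrdc4* and the 5 profiles nearest to *Myc*; other names were chosen after their values were seen. The network genes and lists were chosen with earlier results of these data known.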

Additional observations from a re-analysis of the deposited data

Results flagged for a closer look

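The change of *Myc* between cKO and control was compared between libraries with and without *Xist*, a comparison chosen after the data were seen. In the libraries with *Xist*, cKO 2 was 0.27 higher than the mean of control 1 and 2 on the log2 scale, and in those without it the mean of cKO 1 and 3 fell by 0.31 relative to control 3. The difference between the 2 changes was 0.58 on the log2 scale (0.579 in full, unadjusted p = 0.000537, edgeR's interaction term), and it did not hold after adjustment over all genes (adjusted p = 0.455). In this test 0 of 13296 genes had an adjusted p under 0.05, and 932 had an unadjusted p under 0.05. Each side rests on 1 library of one of the groups, so *Xist* and these libraries cannot be told apart. *Mxd3* was 0.98 lower in cKO in the libraries with *Xist* and 0.16 lower in those without it (log2 values −0.98 and −0.16), with an interaction p of 0.0383 (adjusted p = 0.7, edgeR).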

How the results depend on the processing

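*Max*, *Mnt*, *Mxd4* and *Mlx* passed the test in the same direction under all 16 alternatives, which were other scalings, tools, filters, covariates and each library left out in turn. *Myc* changed sign with *Xist* as a covariate (−0.0204) and without cKO 2, control 1 or control 2 (−0.00567, −0.0557 and −0.0657), with values between −0.0657 and 0.207 over the libraries left out. *Mxi1* ranged from −0.0851 to 0.202 over the same fits, with −0.0851 without cKO 1 and −0.0684 without control 3. In none of these fits with a changed sign did either gene pass the test. Requiring at least 10 counts in every library raised the higher network genes from 1 to 2, with or without the fold cutoff, through *Mycn*. With each library left out, 1 to 2 network genes were higher at an adjusted p under 0.05 and 0 to 1 past both cutoffs, while 3 to 5 were lower and 2 to 3 were lower past both cutoffs. With *Xist* as a covariate 3 were lower, 2 of them past both cutoffs. A test of the change against 1.5-fold left 0 higher and 1 lower network gene and 584 higher and 580 lower genes among all tested, fewer because that test asks for more than the cutoff does. Of 112 counts of pathway genes under DESeq2, the replicate block and libraries left out, 99 stayed within 1.5 times, and those that did not were small counts of at most 5 genes. Whether the replicate numbers pair the samples cannot be settled from these values. Deviations of cKO and control libraries with the same number correlated at 0.00851, 0.0839 and 0.133. Those with different numbers ranged from −0.169 (cKO 2 and control 3) to 0.103 (cKO 2 and control 1). The study used paired t tests for flow cytometry of control and cKO iGCBs. A block on the replicate number lowered the SE of *Mnt* (0.118 to 0.0617) and *Mxi1* (0.157 to 0.0739). It raised that of *Mycn* (0.404 to 0.464) and *Mlx* (0.0925 to 0.102). With the replicate number as a block, 1337 genes were higher and 1398 lower past both cutoffs, and no network gene changed sides of the test, while *Txnip* (−0.31, adjusted p = 0.00369, edgeR) and *Mycl* (0.78, adjusted p = 0.0275) passed it. *Mycn* had the fewest counts of the 10 genes, 21 to 65 per library.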
